A study of Mus musculus with 24 samples.

Results

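The Ly6 surface protein genes Ly6d, Ly6a, Ly6e, Ly6c1 and Ly6c2 were followed in total RNA of mouse liver. They were taken by gene symbol as every feature of the deposited tables that carries 1 of these 5 names, which gave 10 features of 69905, or 5 genes of 49007. The genes were chosen by their FPKM in these same livers, in which some differed strongly between groups, so their values are given as a description and without a test. A feature is 1 entry of the transcript assembly. A gene can have several, also on the same strand, so 1 feature need not hold all RNA of its gene. The level of a feature is in FPKM (fragments mapped to it, scaled to its length and to the mapped total of the sample). The tables hold 1 FPKM value per group of 4 livers, the authors' pooled estimate. The spread between animals is therefore unknown, no SD can be given, and the depth of each library is unknown.

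The livers came from wild-type C57BL/6 mice (C57BL/6N males in the methods of the study) aged 18 weeks that had received a locked nucleic acid (LNA) antisense oligonucleotide for 12 weeks, as the labels state, while the methods of the study give an older age and a longer treatment. The Mafg LNA HFD group received the oligonucleotide against Mafg, a small MAF transcription factor, on a high-fat diet (HFD). The Scr LNA HFD group received a control oligonucleotide on the same diet. The LincIRS2 LNA NCD group received the oligonucleotide against the long noncoding RNA LincIRS2 (4833411C07Rik) on control diet (NCD), and the Scr LNA NCD group received the control oligonucleotide on that diet. HFD supplied 54% of energy as fat, 22% as carbohydrate and 24% as protein, whereas NCD supplied 11%, 62% and 27%. Feeding started at 6 to 7 weeks of age. The groups share strain and an oligonucleotide of the same chemistry, which was given to the whole animal and not to 1 liver cell type. The study also injected mice with insulin or saline before collection, and the labels do not say which liver came from which mouse. The series has 8 more livers, from Mafg LNA on NCD and LincIRS2 LNA on HFD, which were not analysed here.

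The oligonucleotides are shown because they define the groups. They are given 5′ to 3′ as designed by the study, with 16 bases in both targeting LNAs and 15 in the control.
Mafg LNA: gtcttggactttacta
LincIRS2 LNA: ctcgattaacctgata
Scr LNA: aacacgtctatacgc

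Ly6 proteins are small cysteine-rich proteins of the Ly6/uPAR family. A fold held by disulfide bonds is tethered to the outer leaflet of the plasma membrane by a glycosylphosphatidylinositol (GPI) anchor. Mouse immunologists use them as surface markers. Ly6a, also called Sca-1, marks blood stem and progenitor cells and activated lymphocytes, Ly6c2 encodes an epitope of inflammatory monocytes, Ly6c1 is abundant in endothelium, Ly6d marks lymphoid progenitors committed to the B lineage and stratified epithelium, and Ly6e is broadly expressed and inducible by interferon. In whole liver, fewer cells of a type and less RNA per cell cannot be told apart.

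The 5 genes lie together on chromosome 15 (GRCm38). Ly6d (ENSMUSG00000034634) spans chr15:74762056-74763620 on the minus strand, Ly6e (ENSMUSG00000022587) chr15:74955051-74959905 on the plus strand, Ly6a (ENSMUSG00000075602) chr15:74994877-74998031, Ly6c1 (ENSMUSG00000079018) chr15:75044018-75048830 and Ly6c2 (ENSMUSG00000022584) chr15:75108158-75111970, all 3 on the minus strand. All are protein-coding, and no other gene of GENCODE M21 overlaps any of them. The feature named Ly6d covers the whole gene, whose annotated transcript has 3 exons and 744 exonic bases. Ly6d had the highest level ratio of the 5 genes, and the first 300 of its 384 coding bases are shown with the 10 in-frame cysteine codons, the hallmark of the family, in capitals.
Ly6d: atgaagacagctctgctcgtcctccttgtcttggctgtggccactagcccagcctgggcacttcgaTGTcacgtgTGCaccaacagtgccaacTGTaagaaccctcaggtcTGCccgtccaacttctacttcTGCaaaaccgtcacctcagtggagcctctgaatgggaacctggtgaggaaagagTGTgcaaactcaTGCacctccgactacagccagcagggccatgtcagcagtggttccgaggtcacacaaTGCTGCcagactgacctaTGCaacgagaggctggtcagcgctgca

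The coding sequences of Ly6c1 and Ly6c2 differed at 9 of 396 positions (97.7% identity), which bears on how far their levels can be separated. The 150 bases from the start codon hold 6 of these positions, in capitals.
Ly6c1: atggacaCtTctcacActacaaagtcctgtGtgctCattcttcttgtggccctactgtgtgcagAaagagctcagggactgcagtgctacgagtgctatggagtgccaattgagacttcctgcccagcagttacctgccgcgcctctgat
Ly6c2: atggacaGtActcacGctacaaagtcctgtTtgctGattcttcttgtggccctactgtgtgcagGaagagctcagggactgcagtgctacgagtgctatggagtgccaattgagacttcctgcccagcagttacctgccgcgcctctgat

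Of the 321 windows of 76 bases, the read length, in this alignment, 113 (35.2%) held no difference, and the longest run without one was 188 bases. Within the coding sequence the division of single reads between Ly6c1 and Ly6c2 is therefore uncertain. Read pairs and the exonic bases outside the coding sequence were not compared. Ly6a was 82.0% identical to Ly6c1 and 81.7% to Ly6c2, and Ly6d matched the other 4 coding sequences at 49.4% to 51.3% of aligned positions.

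Each of the 5 genes has 2 features, 1 on each strand of its locus. Which strand a feature lies on was worked out from how feature numbers run along each chromosome. Among 4923 protein-coding genes with a feature on each strand and a mean of 0.5 FPKM or more on 1 of them, the higher mean was on the strand opposite to the annotated gene in 89.7%. Ly6a, Ly6e, Ly6c1 and Ly6c2 followed this, with an opposite-strand mean over the 4 groups of 1.14, 15.7, 0.291 and 0.759 FPKM. The features of these 4 genes on their own strand did not exceed 0.0720 FPKM in any group. Ly6d differed from them, with a mean of 3.51 FPKM on its own strand and 3.06 FPKM on the opposite strand. Means within 2-fold of each other on both strands were found for 8.86% of the 4923 genes. Of the 25027 features listed at 0 in all groups, 99.99% lay on the strand of their gene, away from most of the signal, and Col3a1, a collagen gene of liver stroma, was among the genes at 0. A listed 0 is therefore not read as absence of the RNA. Both features of a Ly6 gene are reported, and the division of signal between the strands is a property of the deposited assembly whose origin was not tested.

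Ly6d was high in the Mafg LNA HFD livers and low in the other groups. Its own-strand feature was at 12.9 FPKM in Mafg LNA HFD, against 0.464 FPKM in Scr LNA HFD. In the control-diet groups it was at 0.361 FPKM in LincIRS2 LNA NCD, against 0.315 FPKM in Scr LNA NCD. Mafg LNA HFD stood alone, and the remaining 3 groups lay within 0.315 to 0.464 FPKM. The opposite-strand feature gave 11.2 FPKM in Mafg LNA HFD, against 0.505 FPKM in Scr LNA HFD, and 0.388 FPKM in LincIRS2 LNA NCD, against 0.154 FPKM in Scr LNA NCD. In the Mafg LNA HFD livers, 98.9% of the features matched to a gene lay below the own-strand feature, compared with 79.8% in Scr LNA HFD. Many of the features counted were at or near 0. In the same groups, 47.1% and 48.7% lay below the own-strand feature of Ly6c2, which was at 8.69e-105 and 1.57e-60 FPKM.

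Ly6a, which encodes Sca-1, had 1.97 FPKM in Mafg LNA HFD, against 0.776 FPKM in Scr LNA HFD. It had 0.628 FPKM in LincIRS2 LNA NCD, against 1.19 FPKM in Scr LNA NCD. Its order was Mafg LNA HFD, Scr LNA NCD, Scr LNA HFD and LincIRS2 LNA NCD. Ly6c2, the gene of the monocyte epitope, stood in the same order, at 1.39 FPKM in Mafg LNA HFD, against 0.502 FPKM in Scr LNA HFD, and at 0.349 FPKM in LincIRS2 LNA NCD, against 0.790 FPKM in Scr LNA NCD. The nearest annotated transcript of both Ly6c2 features is one with a retained intron, of 2 exons and 2680 exonic bases. It is not the coding transcript whose sequence is shown, so these values need not be those of coding Ly6c2 RNA. Without a spread between livers, it cannot be said which neighbours in these orders differ.

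Ly6c1, best known from endothelium, stayed under 0.5 FPKM throughout. It was at 0.441 FPKM in Mafg LNA HFD, against 0.356 FPKM in Scr LNA HFD, and at 0.150 FPKM in LincIRS2 LNA NCD, against 0.218 FPKM in Scr LNA NCD. Unlike in Ly6a and Ly6c2, the Scr LNA HFD value was above the Scr LNA NCD value. Ly6e, a receptor for the placental fusion protein syncytin-A in mice, was the most abundant of the 5 genes, at 16.2 FPKM in Mafg LNA HFD, against 12.7 FPKM in Scr LNA HFD. It was at 16.6 FPKM in LincIRS2 LNA NCD, against 17.2 FPKM in Scr LNA NCD. Scr LNA HFD was the lowest of the 4 groups, and the other 3 lay within 16.2 to 17.2 FPKM. FPKM is a level per length, so features can be set in order within a group, here the feature of higher mean of each gene. In the Mafg LNA HFD livers the order was Ly6e, Ly6d, Ly6a, Ly6c2 and Ly6c1, whereas Ly6d came after Ly6a and Ly6c2 in Scr LNA HFD and in Scr LNA NCD.

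**Figure D1:**
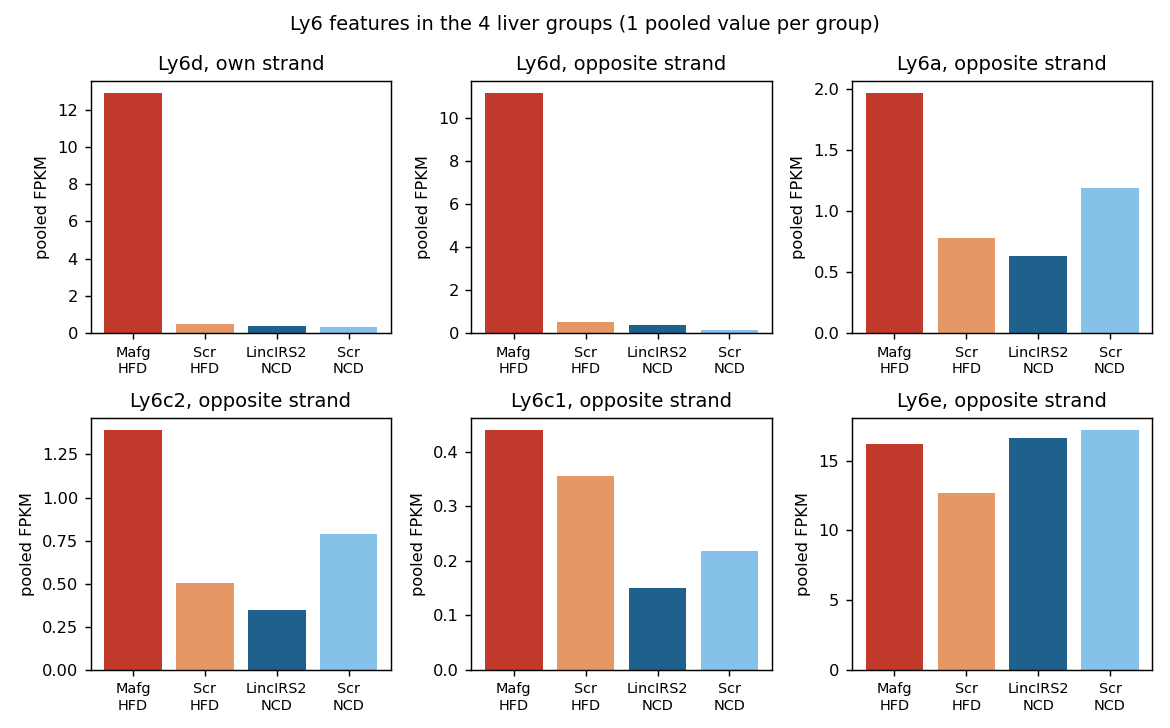
Pooled FPKM (linear axis from 0, with its own range in each panel) of the 6 Ly6 features above 0.1 FPKM, 1 bar per group and no error bar because 1 value per group was deposited. Ly6d on both strands is high only in the Mafg LNA HFD bar (12.9 and 11.2 FPKM), while Ly6e varies between 12.7 and 17.2 FPKM.

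To ask how these genes stood when Mafg was targeted under high-fat feeding, Mafg LNA HFD was set over Scr LNA HFD. The log2 ratio was taken after adding 0.1 FPKM to both values, which understates the change of low genes, and was read where 1 of the groups reached 0.5 FPKM. Of the 10 Ly6 features, 5 reached this level, and 4 of them, from 3 genes, were past 2-fold and higher in Mafg LNA HFD. Over all 14472 features that reached it, 9.83% were past 2-fold, with 5.97% higher and 3.86% lower, and the median log2 ratio was -0.03. The genes were chosen with this contrast in view, and nothing is read from the count.

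Ly6d had a log2 ratio of 4.53 on its own strand and 4.22 on the opposite strand, and the plain ratios of its pooled values were 27.8 and 22.2. The ratio was larger in 43 other features for the own strand and in 48 for the opposite strand. Ly6c2 followed with a log2 ratio of 1.31 and Ly6a with 1.24, which 537 and 601 features exceeded. Ly6e had a log2 ratio of 0.35, which is under 2-fold. Ly6c1 and the 4 features at or under 0.0720 FPKM did not reach the level for a ratio. With 1 FPKM added in place of 0.1, Ly6a had a log2 ratio of 0.74 and Ly6c2 one of 0.67, both under 2-fold, whereas both Ly6d features stayed past it. Rescaling to the summed FPKM of protein-coding features, 69613 in Mafg LNA HFD and 81634 in Scr LNA HFD, moved the median log2 ratio of all features to 0.20, and the 5 Ly6 ratios kept their sign.

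**Figure D2:**
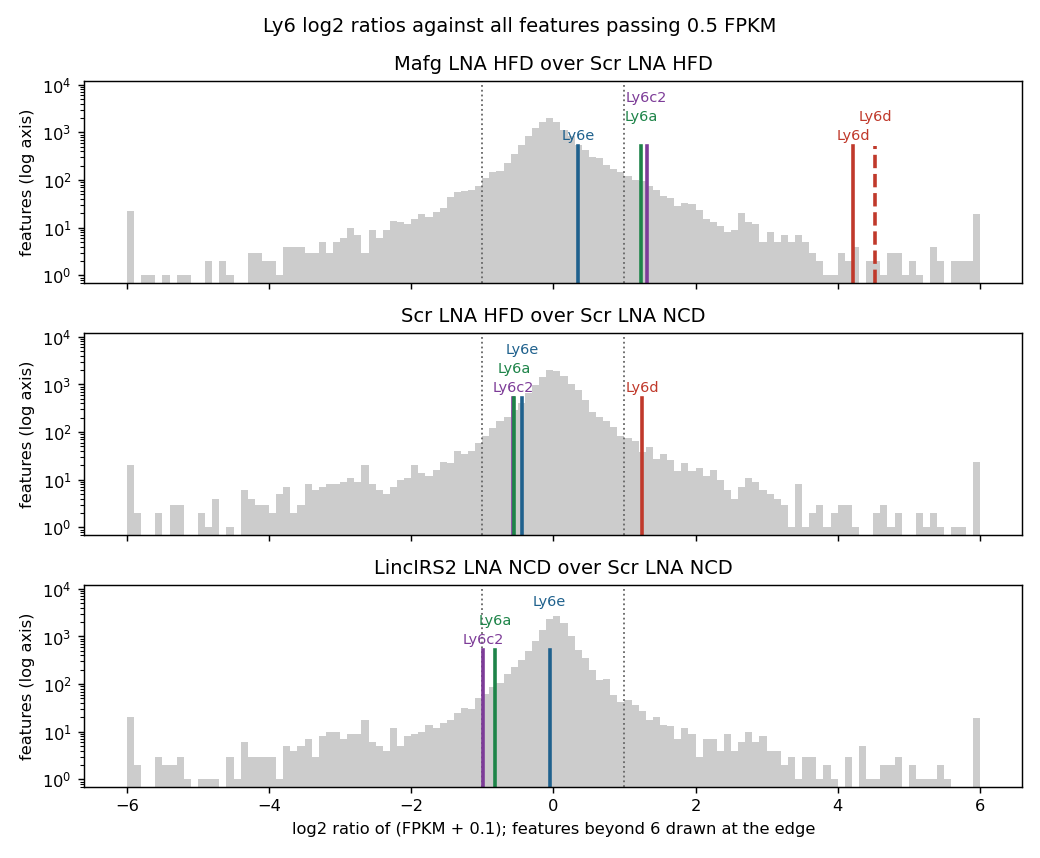
Number of features (log axis) per 0.1 of the log2 ratio of (FPKM + 0.1) in the 3 comparisons, in grey, with the Ly6 features as coloured lines (solid for the strand opposite to the gene, dashed for its own strand) and dotted lines at 2-fold. The Ly6d lines stand at 4.22 and 4.53 in the Mafg LNA comparison, and Ly6c2 lies at -0.99 in the LincIRS2 LNA comparison.

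The question of what the diet alone did was addressed by setting Scr LNA HFD over Scr LNA NCD. In this comparison 4 Ly6 features reached 0.5 FPKM and 1 was past 2-fold, where 7.41% of 13918 features were past it (3.9% higher and 3.51% lower). This was the opposite-strand feature of Ly6d, with 0.505 FPKM in Scr LNA HFD, against 0.154 FPKM in Scr LNA NCD, and a log2 ratio of 1.25. It passed the 0.5 FPKM level narrowly, and the own-strand feature with 0.464 and 0.315 FPKM in the same groups did not. With 1 feature per gene, a level of 1 FPKM, 1 FPKM added or rescaling to protein-coding features, no Ly6 feature was past 2-fold. Ly6a, Ly6c2 and Ly6e were lower in Scr LNA HFD, at log2 ratios of -0.56, -0.56 and -0.44, all under 2-fold.

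LincIRS2 LNA NCD was set over Scr LNA NCD to follow the genes when the long noncoding RNA was targeted on control diet. Of the Ly6 features 3 reached 0.5 FPKM and 0 were past 2-fold, where 5.4% of 13766 features were (2.43% higher and 2.97% lower). Ly6c2 lay just under it with a log2 ratio of -0.99, the 419th lowest of all features, and Ly6a had one of -0.82. Ly6e was at -0.05. With 0.01 FPKM added in place of 0.1, Ly6c2 had a log2 ratio of -1.16, past 2-fold, and it also passed 2-fold narrowly with ratios centred on the median of all features. Scr LNA HFD enters both the Mafg LNA and the diet comparison, and Scr LNA NCD enters both the diet and the LincIRS2 LNA comparison, so none of the 3 is independent of the others.

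The targeted RNAs were looked up in the same tables. LincIRS2 was at 0.345 FPKM in LincIRS2 LNA NCD, against 0.558 FPKM in Scr LNA NCD. It was at 0.483 FPKM in Mafg LNA HFD, against 0.213 FPKM in Scr LNA HFD. The tables used here have 0 features named Mafg, so its level was not analysed here. Features matched to no gene carried 90.4% to 93.6% of all FPKM in the 4 groups, and the 10 highest features 87.7% to 92.5%, so the summed FPKM is no measure of depth.

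Few other genes of the Ly6/uPAR family had enough signal for a ratio. Of 32 further family members listed, 30 have a feature, and 22 of these stayed under 0.1 FPKM in every group. The remaining 8 were Lynx1, Slurp1, Ly6k, Gpihbp1, Cd59a, Cd59b, Lypd6 and Plaur. By the feature of highest mean, 3 reached 0.5 FPKM in the Mafg LNA comparison and 0 were past 2-fold, where 7.31% of all genes were, so the count is too small to set the family apart from other genes. Cd59a, which protects cells from complement, had 6.04 FPKM in Mafg LNA HFD, against 6.45 FPKM in Scr LNA HFD. Cd59b, its duplicate, had 0.915 FPKM in Mafg LNA HFD, against 1.41 FPKM in Scr LNA HFD, and against 0.623 FPKM in Scr LNA NCD the Scr LNA HFD value gave a log2 ratio of 1.06. Gpihbp1, which carries lipoprotein lipase across capillary endothelium, had 0.936 FPKM in Mafg LNA HFD, against 0.961 FPKM in Scr LNA HFD.

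The weakly expressed relatives were closer to the detection limit. Ly6k, which is needed in sperm for fertility, was at 0.109 FPKM in Mafg LNA HFD and listed at 0 in Scr LNA HFD, and it was at 0.0306 FPKM in LincIRS2 LNA NCD and listed at 0 in Scr LNA NCD. Plaur, the urokinase receptor, had its highest feature at 0.260 FPKM in Mafg LNA HFD, against 0.121 FPKM in Scr LNA HFD. Lynx1, a modulator of nicotinic acetylcholine receptors, had 0.435 FPKM in Mafg LNA HFD, against 0.226 FPKM in Scr LNA HFD. Lypd6, also a modulator of nicotinic receptors, had 0.0758 FPKM in Mafg LNA HFD, against 0.0388 FPKM in Scr LNA HFD, and Slurp1, a secreted family member of skin, had 0.334 FPKM, against 0.261 FPKM, in these groups. All 5 were higher in Mafg LNA HFD than in Scr LNA HFD, at levels too low for a ratio. Lypd6 was highest in Scr LNA NCD, at 0.318 FPKM, the only group where it reached 0.1 FPKM. Ly6k reached 0.1 FPKM, the level for being named, only in Mafg LNA HFD, so its direction was fixed by that choice. Of all 9748 matched features with a mean of 0.05 to 0.5 FPKM, 5609 were higher in Mafg LNA HFD, with a median log2 ratio of 0.09. The mean of Ly6k lies below this range.

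The stretch of chromosome 15 from Ly6d to Ly6c2 also holds 14 features that match no gene, all under 0.5 FPKM. They lay between 0.140 and 0.364 FPKM in Mafg LNA HFD, against 0.0331 to 0.223 FPKM in Scr LNA HFD. Of the 14, 13 were higher in Mafg LNA HFD, with a median log2 ratio of 0.92. Over the 7288 unmatched features of the same level, a mean of 0.05 to 0.5 FPKM, 4866 were higher in Mafg LNA HFD and the median log2 ratio was 0.31. The 14 neighbours had a median of -0.20 for Scr LNA HFD over Scr LNA NCD and of -0.39 for LincIRS2 LNA NCD over Scr LNA NCD. Features this close to each other may come from 1 transcript and are not separate observations.

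**Figure D3:**
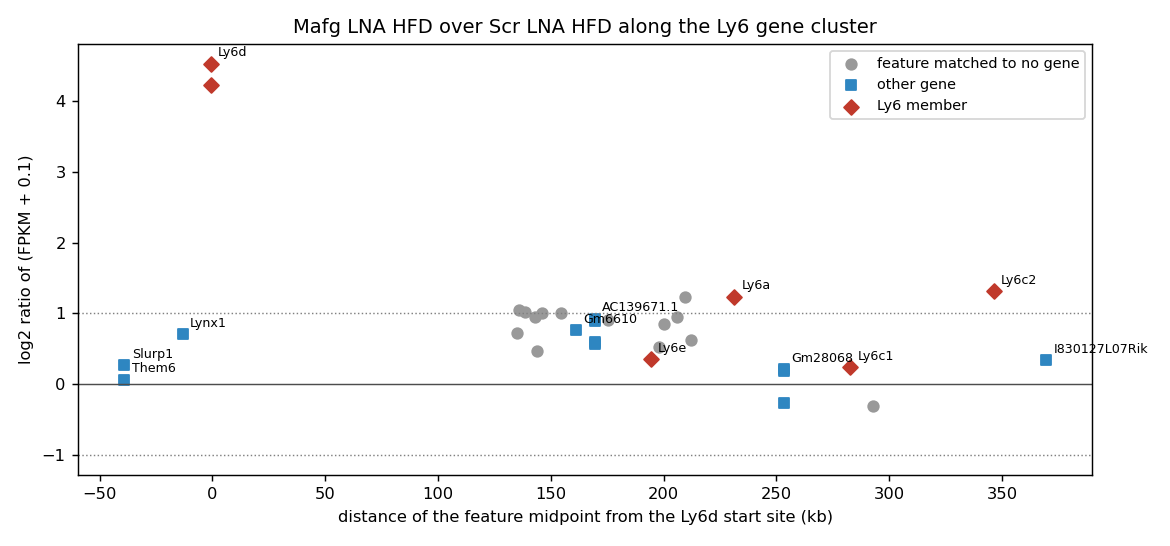
Log2 ratio of (FPKM + 0.1), Mafg LNA HFD over Scr LNA HFD, against the distance in kb from the Ly6d start site for features of the Ly6 cluster with 0.05 FPKM or more in 1 of the groups and 0.01 FPKM or more in both, with dotted lines at 2-fold. Ly6d at 4.22 and 4.53 stands apart from its neighbours, and most unmatched features lie between 0 and 1.24.

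Genes that attach Ly6 proteins to the membrane were counted in the same way. Of 28 listed genes of GPI anchor synthesis and attachment, 24 have a feature, 14 reached 0.5 FPKM in the Mafg LNA comparison and 0 were past 2-fold, near the 7.31% of all genes, with a median log2 ratio of -0.09, against -0.05 over all 9466 genes. Pigq, a subunit of the enzyme of the first step, had 1.85 FPKM in Mafg LNA HFD, against 3.72 FPKM in Scr LNA HFD, a log2 ratio of -0.97. Pigg, which adds ethanolamine phosphate to the anchor, had 0.635 FPKM in Mafg LNA HFD, against 1.21 FPKM in Scr LNA HFD, a log2 ratio of -0.83. None of the 13 that reached the level in the other 2 comparisons was past 2-fold either. The shares of all genes were 5.63% in the diet comparison and 3.84% in the LincIRS2 LNA comparison.

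Interferon-stimulated genes, among which Ly6e and Ly6a are commonly counted, included several that were higher with Mafg LNA. Of 40 listed, 35 have a feature and 27 reached 0.5 FPKM, and 9 of these were past 2-fold and higher in Mafg LNA HFD and 1 lower, with a median log2 ratio of 0.85. Of these 10, 3 reached 0.5 FPKM in the higher group of the comparison and not in the other, which favours a large ratio. Over all genes 4.34% were past 2-fold and higher and 2.97% lower. Cxcl10, a chemokine that attracts T cells, had 2.57 FPKM in Mafg LNA HFD, against 0.654 FPKM in Scr LNA HFD. Usp18, which removes the ubiquitin-like ISG15, had 3.82 FPKM, against 1.21 FPKM, and Zbp1, a sensor of nucleic acids, 0.887 FPKM, against 0.243 FPKM, in the same groups. Ddx58, the RNA sensor RIG-I, went the other way with 0.0704 FPKM in Mafg LNA HFD, against 0.605 FPKM in Scr LNA HFD. This feature lies on the strand of its gene and had 0.0643 FPKM in LincIRS2 LNA NCD and 0.0542 FPKM in Scr LNA NCD. It reached 0.5 FPKM only in Scr LNA HFD, so nothing is read from its ratio here or in the diet comparison. In the diet comparison 1 of 23 was past 2-fold, Ddx58 with a log2 ratio of 2.19, where 2.88% of all genes were higher and 2.75% lower. In the LincIRS2 LNA comparison it was 0 of 22, where 1.6% of all genes were higher and 2.23% lower. The log2 ratio of Ly6e in the Mafg LNA comparison, 0.35, was below this median, and that of Ly6a, 1.24, above it.

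Cell types that carry Ly6 proteins were followed by marker lists, summed over the feature of highest mean of each gene. The 12 monocyte markers summed to 24.2 FPKM in Mafg LNA HFD, against 12.6 FPKM in Scr LNA HFD, and to 9.59 FPKM in LincIRS2 LNA NCD, against 20.2 FPKM in Scr LNA NCD. In this sum, to which Lyz2 gave the most, the groups stand in the order seen for Ly6a and Ly6c2. Of 8 that reached 0.5 FPKM, 5 were past 2-fold and higher in Mafg LNA HFD, where 4.34% of all genes were. However, 3 of the 5 reached 0.5 FPKM in Mafg LNA HFD and not in Scr LNA HFD. Ccr2, the receptor that calls monocytes from bone marrow, had 2.85 FPKM in Mafg LNA HFD, against 0.937 FPKM in Scr LNA HFD, and S100a4 3.19 FPKM, against 0.959 FPKM, in these groups. Chil3 had 0.547 FPKM, against 0.0589 FPKM, and Fcgr1, a receptor for immunoglobulin G, 0.891 FPKM, against 0.308 FPKM. Of these named genes, Ccr2 and S100a4 stood in the order of the sum and the others did not. Chil3 was highest in Scr LNA NCD, at 1.17 FPKM. Fcgr1 was lowest in Scr LNA HFD, with 0.325 FPKM in LincIRS2 LNA NCD. In the LincIRS2 LNA comparison 3 of 8 were past 2-fold and lower, where 2.23% of all genes were, and in the diet comparison 1 of 8, where 2.75% were. In each of these 2 comparisons 1 of those called reached 0.5 FPKM in Scr LNA NCD and not in the group set over it. No monocyte marker was at 0 in all groups. The part of monocyte content in the Ly6a and Ly6c2 levels was not tested.

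The 13 T and NK cell markers summed to 3.20 FPKM in Mafg LNA HFD, against 1.13 FPKM in Scr LNA HFD, and to 0.973 FPKM in LincIRS2 LNA NCD, against 1.65 FPKM in Scr LNA NCD, also in the order of Ly6a and Ly6c2. Only the chemokine Ccl5 reached 0.5 FPKM, with 0.644 FPKM in Mafg LNA HFD, against 0.179 FPKM in Scr LNA HFD. Ccl5 did so only in the group where it was high, which favours a large ratio, so nothing is read from it. The 10 Kupffer cell markers summed to 38.9 FPKM in Mafg LNA HFD, against 29.6 FPKM in Scr LNA HFD, and to 28.0 FPKM in LincIRS2 LNA NCD, against 48.8 FPKM in Scr LNA NCD. Of 9 that reached 0.5 FPKM in the Mafg LNA comparison, the scavenger receptor Marco was past 2-fold and higher, with 2.86 FPKM, against 1.22 FPKM, and the hemoglobin receptor Cd163 past it and lower, with 0.351 FPKM, against 1.07 FPKM. Of the groups compared, Cd163 reached 0.5 FPKM only in Scr LNA HFD, where it was high, which favours a large ratio. Among all genes 4.34% were past 2-fold and higher and 2.97% lower. Kupffer cell and neutrophil sums stood in another order, Scr LNA NCD, Mafg LNA HFD, Scr LNA HFD and LincIRS2 LNA NCD. Neutrophil markers summed to 7.24 FPKM in Mafg LNA HFD, against 1.83 FPKM in Scr LNA HFD. They summed to 1.65 FPKM in LincIRS2 LNA NCD, against 21.4 FPKM in Scr LNA NCD, and all that reached 0.5 FPKM were past 2-fold. These were 4 genes higher in the Mafg LNA comparison and 5 lower in each of the others, where the shares of all genes were 4.34%, 2.75% and 2.23%. Of them 2, 3 and 4 reached 0.5 FPKM in the higher group of the comparison and not in the other. This nearly fixes the outcome, so nothing is read from these counts.

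Markers of the other cell types were set beside Ly6d and Ly6c1. The B cell and plasma cell list summed to 2.01 FPKM in Mafg LNA HFD, against 1.38 FPKM in Scr LNA HFD, and to 1.42 FPKM in LincIRS2 LNA NCD, against 2.16 FPKM in Scr LNA NCD. In the Mafg LNA comparison 0 of its 2 genes that reached 0.5 FPKM were past 2-fold, where 7.31% of all genes were. The plasmacytoid dendritic cell list, nearly all of it Bst2, summed to 51.7 FPKM in Mafg LNA HFD, against 39.5 FPKM in Scr LNA HFD, and to 48.6 FPKM in LincIRS2 LNA NCD, against 55.2 FPKM in Scr LNA NCD. Both lists were highest in Scr LNA NCD. Bst2 is also the highest gene of the interferon-stimulated list, so its level need not follow plasmacytoid dendritic cells. Squamous and urothelial epithelium, where Ly6d is abundant, summed to 0.0194 FPKM in Mafg LNA HFD, against 0.0941 FPKM in Scr LNA HFD, and to 0.0656 FPKM in LincIRS2 LNA NCD, against 0.0613 FPKM in Scr LNA NCD, with Krt5, Krt15, Trp63, Dsg3, Dsc3, Upk3a and Krt13, 7 of its 10 genes, listed at 0 in all 4 groups. None of the 10 is represented by a feature on the opposite strand, so these values need not mean that the RNAs were absent.

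None of 8 endothelial genes was past 2-fold in the Mafg LNA comparison, and this list summed to 14.3 FPKM in Mafg LNA HFD, against 16.7 FPKM in Scr LNA HFD. The same held for the 4 cholangiocyte genes that reached 0.5 FPKM. All 8 genes of that list summed to 20.1 FPKM in Mafg LNA HFD, against 13.3 FPKM in Scr LNA HFD. Spp1 gave most of this sum, with 17.9 FPKM, against 10.8 FPKM. Of 6 stellate cell genes 1 was past 2-fold, the collagen gene Col1a2 with 6.30 FPKM in Mafg LNA HFD, against 3.01 FPKM in Scr LNA HFD. Of 4 erythroid genes 3 were past 2-fold and lower, and the list summed to 901 FPKM in Mafg LNA HFD, against 1950 FPKM in Scr LNA HFD. Hepatocyte markers, which define the tissue, summed to 4123 FPKM in Mafg LNA HFD, against 5731 FPKM in Scr LNA HFD, with 1 of 9 past 2-fold and higher. Among all genes in this comparison, 4.34% were past 2-fold and higher and 2.97% lower, beside which these lists are small. The part of cell content in the Ly6d and Ly6c1 levels was not tested.

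**Figure D4:**
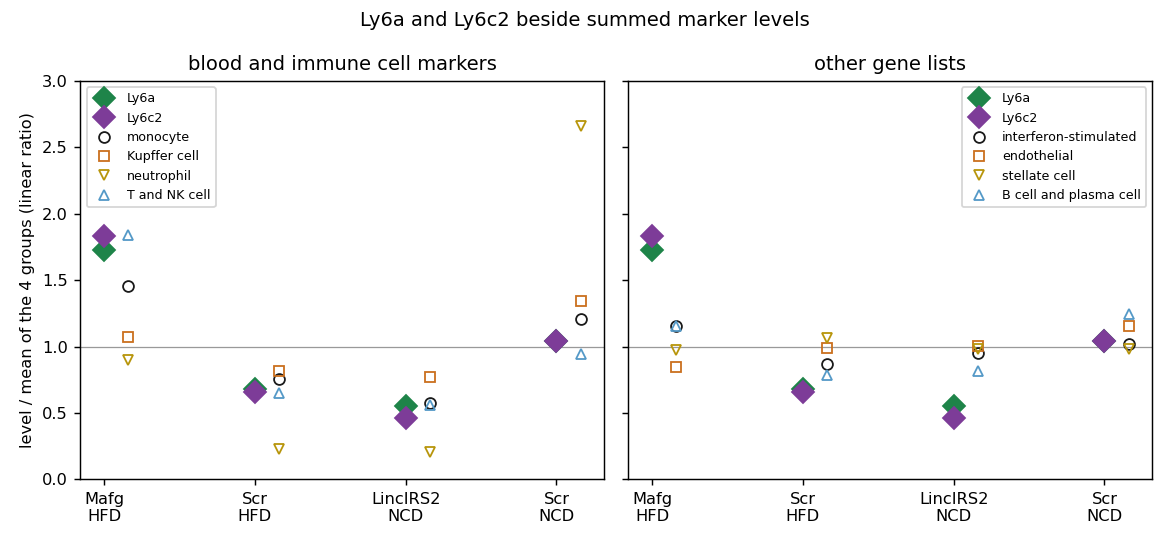
Levels of Ly6a and Ly6c2 (opposite-strand features, filled) and summed FPKM of 8 gene lists (open symbols), each divided by its own mean over the 4 groups (linear ratio, 1 pooled value per group). Ly6a, Ly6c2, monocyte and T and NK cell markers are highest in Mafg LNA HFD and lowest in LincIRS2 LNA NCD. Kupffer cell, neutrophil, endothelial and B cell and plasma cell markers are highest in Scr LNA NCD.

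Finally, the genes whose pattern over the 4 groups was most like that of each Ly6 gene were listed. The likeness was the root mean square difference of log2(FPKM + 0.1), centred on the mean of the groups, over 5685 protein-coding genes with 1 FPKM or more in 1 group. With 4 points per gene, a small difference is a description only. Closest to Ly6d were the metalloprotease gene Adam12 (0.30), the steroid dehydrogenase gene Akr1c18 (0.50), Ubd (0.67), which encodes a ubiquitin-like protein, the sperm gene Eqtn (0.70) and the collagenase gene Mmp13 (0.95). Adam12 was at 3.97 FPKM in Mafg LNA HFD and listed at 0 in the other 3 groups. Ubd was at 5.77 FPKM in Mafg LNA HFD, against 0.840 FPKM in Scr LNA HFD, and Mmp13 at 1.21 FPKM, against 0.127 FPKM.

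Ly6a was closest to Ms4a6b (0.06), to Ly6c2 (0.08) and to Cytip (0.09), which encodes a cytohesin-binding protein of leukocytes. Ly6c2 was closest to Ly6a (0.08), to Cd74 (0.09), the invariant chain of MHC class II, and to Sla (0.10), an adaptor of antigen receptor signaling. Cd74 was at 5.49 FPKM in Mafg LNA HFD, against 2.03 FPKM in Scr LNA HFD, and at 1.72 FPKM in LincIRS2 LNA NCD, against 3.59 FPKM in Scr LNA NCD. Ly6e was closest to the AMP deaminase gene Ampd2 (0.02), the potassium channel gene Kcnk5 (0.02) and Amot (0.04). Ly6c1 was closest to Dnase1l2 (0.04), to the amino acid transporter gene Slc1a4 (0.05) and to Cyp2a5 (0.05), a cytochrome P450 gene of liver. Ly6c1 stayed under 0.5 FPKM, so the added 0.1 FPKM narrowed its pattern more than that of Cyp2a5. How far the likeness depends on this was not tested. Cyp2a5 was at 62.1 FPKM in Mafg LNA HFD, against 51.7 FPKM in Scr LNA HFD, and at 29.1 FPKM in LincIRS2 LNA NCD, against 33.9 FPKM in Scr LNA NCD.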

How the data were processed

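Total RNA was depleted of rRNA, and strand-specific libraries of 24 livers (6 groups of 4) were sequenced as paired reads of 76 bases. Per the labels and the methods of the study, the authors trimmed reads with flexbar, removed rRNA with Bowtie2 2.2.9, aligned with STAR 2.6.0c to GRCm38 (mm10), assembled transcripts with Cufflinks 2.2.1 and deposited 1 FPKM value per feature and group from Cuffdiff, with Ensembl release 90 names. Further deposited columns hold the authors' own comparisons (fold change, test statistic, p-value, q-value, call) and were not used.

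The 3 tables were joined on the feature identifier, and the values of the groups that stand in 2 tables were identical. A log2 ratio was taken after adding 0.1 FPKM, and read where 1 of both groups had 0.5 FPKM or more. A size of 1 on the log2 scale, 2-fold, stands in for a test, which 1 value per group does not allow. Feature numbers run along the plus strand of a chromosome and then along its minus strand, so the largest step back in start position (over 1000000 bases) divided the strands and placed 69752 features. Of the 25027 features at 0 in all groups, 99.99% fell on the strand of their gene. Locus starts were raised by 1 to count from 1. Coding sequences are those of APPRIS principal transcripts of GENCODE M21, aligned with Biopython 1.88. Calculations used Python 3.11.15, pandas 2.3.3 and numpy 2.4.6, and scripts were tested on simulated data.

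The members and the 15 gene lists were chosen with earlier results of these data known. The genes named are all features of the members, family genes with 0.1 FPKM or more in 1 group, up to 4 genes per list with the largest log2 ratio in the Mafg LNA comparison among those with 0.5 FPKM or more, and the 5 genes most like Ly6d and 3 most like each other member. Alternatives were an added 0.01 or 1 FPKM, no level or 1 FPKM, 1 feature per gene, rescaling, centring on the median and each strand alone. Of the RefSeq promoters 2 of 5 members matched, and none was used here.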

Additional observations from a re-analysis of the deposited data

How the results depend on the processing

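No paired analysis was possible because the deposited values are pooled over the 4 livers of a group, and for the same reason no liver could be left out. The 12 Ly6 log2 ratios gave 90 values under the alternatives. None changed sign, and 85 stayed on their side of 2-fold. In the Mafg LNA comparison, where 4 Ly6 features were past 2-fold, 2 were with 1 FPKM added and 1 with features on the strand of their gene only, where 1 reached the level. In the diet comparison, where 1 was past it, 0 were with 1 FPKM added, with a level of 1 FPKM, with 1 feature per gene, after rescaling or with the gene's own strand only. In the LincIRS2 LNA comparison, where 0 were past it, 1 was with 0.01 FPKM added and 1 after centring on the median. Using the opposite strand alone, chosen after seeing the data, left 3, 1 and 0 features past 2-fold. With 1 FPKM added, 2.40%, 2.22% and 1.55% of all features were past 2-fold in the 3 comparisons, against 9.83%, 7.41% and 5.4% with 0.1 FPKM. Depth per liver is unknown, and features near 0.5 FPKM, Ly6d outside the Mafg LNA HFD group among them, have no stated precision.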
